A study of Caenorhabditis elegans with 3 samples.

Results

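The genes described here are the *Caenorhabditis elegans* cuticle collagens that are named for body shape or for blisters and lie outside the annular furrow group. They are the dumpy genes *dpy-4*, *dpy-5*, *dpy-13* and *dpy-17*, the roller and squat genes *rol-6*, *sqt-1* and *sqt-3*, the long gene *lon-3*, and the blister genes *bli-1* and *bli-2*. Members were chosen by their symbol in the array's gene annotation, and all 10 were found, each on 1 of the 20000 features and each measured on all 3 arrays. They make up 10 of the 19292 genes tested, and all 10 symbols were matched to a current gene record by Entrez ID. *bli-1*, *bli-2*, *rol-6* and *sqt-1* lie on chromosome II, *dpy-4* and *dpy-13* on IV, *sqt-3* and *lon-3* on V, *dpy-17* on III and *dpy-5* on I.

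The nematode cuticle is an extracellular matrix built mostly of small collagens, which the epidermis secretes anew at each molt. These collagens are hydroxylated and assembled into triple helices in the endoplasmic reticulum, trimmed by proteases and crosslinked outside the cell. Mutations in single members change the form of the whole animal. Dumpy animals are short and fat, rollers turn about their long axis, long animals are thin, and blistered animals carry fluid-filled swellings of the adult cuticle. The adult cuticle also has struts, columns that span its fluid-filled medial layer and that the larval cuticles of the preceding stages lack. During the last larval stage, L4, the epidermis makes the adult cuticle.

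Each array compared RNA of late L4 hermaphrodites, labelled prep 1, 2 or 3, with RNA of a wild-type mixed reference in the other channel. The labels give no strain or genotype for the late L4 animals, no age in hours and no list of the stages in the reference, and the RNA is of whole animals. The 3 arrays form 1 group, and 0 of them were dye-swapped, so a dye effect particular to a gene cannot be told apart from a difference between the RNAs. Values are the deposited log2 ratios. Positive values are taken as higher in late L4. That direction is taken from the wording of the sample descriptions, which put late L4 first. It is likely, though the files do not state it. Whether each prep was a culture of its own is not said, so the scatter between preps could be technical. The p-values rest on that scatter after each gene's variance was drawn toward a value common to all genes. They therefore do not follow the printed SD of a gene alone.

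Values were present for 19825 to 19903 features per array, with array medians from -0.10 to 0.01. As a check of stage, 29 of 30 major sperm protein genes were higher in late L4 (limma, adjusted p under 0.05), as L4 hermaphrodites make sperm. These genes do not tell the sexes apart, as males make sperm too. They are similar in sequence, so they may not be separate observations. Of 8 genes expressed in male tissues limma called 0, and 0 had an unadjusted p under 0.05. A lack of difference from the reference does not show that males were absent. Of 3 yolk protein genes, which adults express, 1 was lower and 0 higher, also at an unadjusted p under 0.05. That gene, *vit-2*, missed the threshold with prep 3 left out (adjusted p = 0.34), under median centring (0.064) and with robust eBayes (0.26). Of 4 collagen genes taken as markers of the adult phase, 3 were higher (limma, adjusted p under 0.05). These were *col-62* at 20.6-fold, *col-7* at 12.7-fold and *col-19* at 2.99-fold, and *col-63* did not pass. The call of *col-19* ended with robust eBayes (adjusted p = 0.059) and without prep 1 (0.060). The design allows 1 comparison, that of late L4 with the reference. In whole-animal RNA, fewer cells of a type and less RNA per cell cannot be told apart. Fold changes are antilogs of the mean log2 ratio, errors are SDs over 3 arrays, and tests are limma's moderated test against 0, adjusted over all 19292 genes.

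Of the 10 genes, 8 passed the test, against 22.9% of all genes tested. In late L4, 7 were higher and 1 was lower, against 12.0% and 10.8% of all genes. The higher genes were both strut collagens, *dpy-4*, *dpy-13*, *sqt-1*, *sqt-3* and *rol-6*. *dpy-17* was the lower gene, and *dpy-5* and *lon-3* did not pass. The median of the 10 means was 1.32 log2 units, beside -0.03 over all genes. On 6 genes all 3 arrays were above 0 and on 2 all were below, against 23.2% and 27.9% of all genes. Without prep 3 the count of higher genes was 4, since *sqt-1*, *sqt-3* and *rol-6* then missed the threshold.

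**Figure D1:**
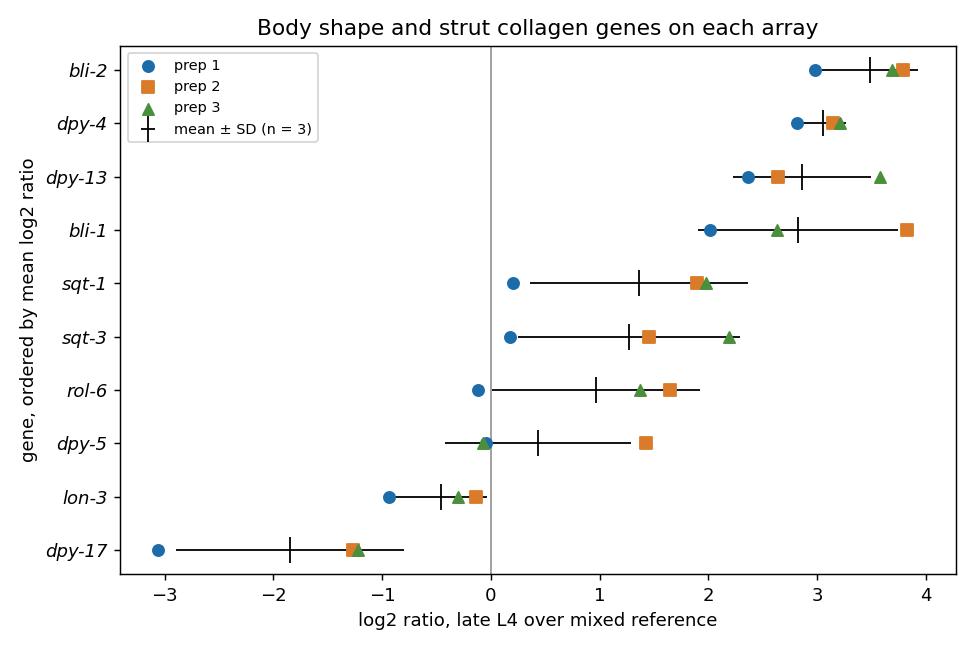
Log2 ratio of late L4 over the mixed reference for the 10 body shape and strut collagen genes, ordered by their mean. Symbols are the single arrays of preps 1, 2 and 3, and bars show the mean and SD over the 3 arrays. The values of *bli-2* lie between 2.98 and 3.79, those of *dpy-17* between -3.06 and -1.22, and prep 1 is the lowest array for every gene except *dpy-5*.

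Both strut collagen genes stood high on every array. *bli-2* (F59E12.12), which encodes a collagen needed to hold the layers of the adult cuticle together, measured 2.98, 3.79 and 3.69 on the log2 scale on preps 1, 2 and 3. These values place it above 98.8%, 99.8% and 99.7% of the genes of each array. Its mean was 11.2-fold higher in late L4 (3.48 ± 0.44, SD, n = 3; limma, adjusted p = 2.09e-07), which ranked 63rd among the 19292 genes. *bli-1* (C09G5.6), the other strut collagen gene, whose loss likewise blisters the adult cuticle, had log2 ratios of 2.02, 3.83 and 2.64. It was 7.09-fold higher (2.83 ± 0.92, SD, n = 3; limma, adjusted p = 7.60e-06). Both strut genes were lowest on prep 1 and highest on prep 2, but the sizes of these differences were unequal. *bli-2* exceeded *bli-1* by 0.96 and 1.05 log2 units on preps 1 and 3, while on prep 2 the difference was -0.04. Over the arrays the difference of these ratios was 0.66 ± 0.60 (SD, n = 3), with overlapping ranges.

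The dumpy genes did not share a direction. *dpy-4* (Y41E3.2) had the steadiest ratios of the 10, at 2.81, 3.15 and 3.21 on preps 1, 2 and 3, and was 8.31-fold higher (3.06 ± 0.21, SD, n = 3; limma, adjusted p = 3.70e-07). For *dpy-13* (F30B5.1), a collagen gene whose mutants are markedly shortened, the ratios were 2.37, 2.64 and 3.58. Its mean was 7.28-fold higher (2.86 ± 0.64, SD, n = 3; limma, adjusted p = 2.11e-06), and the highest array was prep 3. On every array both genes lay above at least 97.8% of all genes.

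*dpy-5* (F27C1.8) was near the reference on preps 1 and 3, at -0.04 and -0.07, and stood at 1.43 only on prep 2. Its mean of 0.44 ± 0.86 (SD, n = 3) did not pass (limma, adjusted p = 0.34; 95% interval of the mean from -0.20 to 1.07). Without prep 2 the mean was -0.06, so its sign rests on that array.

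*dpy-17* (F54D8.1), whose product is needed for secretion of the SQT-3 collagen, was low on every array, at -3.06, -1.27 and -1.22 on preps 1, 2 and 3. It was 3.60-fold lower in late L4 (-1.85 ± 1.05, SD, n = 3; limma, adjusted p = 0.000580). Prep 1 stood apart from the other arrays, and without it the gene was 2.37-fold lower (limma, adjusted p = 0.00416). *dpy-17* was below all but 0.365% of genes on prep 1 and below all but 5.01% on prep 3.

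*sqt-3* (F23H12.4), the partner of *dpy-17* in this pathway, stood at log2 ratios of 0.17, 1.46 and 2.19 on the 3 preps in turn. Its mean was 2.42-fold higher (1.27 ± 1.02, SD, n = 3; limma, adjusted p = 0.00858), but with prep 3 left out it missed the threshold (mean 0.82, adjusted p = 0.14). The ratios of these partner genes lay far apart. *sqt-3* exceeded *dpy-17* by 3.23, 2.72 and 3.41 log2 units on the 3 arrays, and their ranges did not overlap.

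*sqt-1* (B0491.2) and *rol-6* (T01B7.7), which interact genetically and whose altered alleles twist the cuticle so that animals roll, had similar profiles. The log2 ratios of *sqt-1* were 0.20, 1.90 and 1.98 on preps 1, 2 and 3, and those of *rol-6* were -0.12, 1.65 and 1.37. Both genes were thus close to the reference on prep 1 and above at least 93.3% of all genes on the other arrays. *sqt-1* was 2.57-fold higher (1.36 ± 1.00, SD, n = 3; limma, adjusted p = 0.00524) and missed the threshold without prep 3 (adjusted p = 0.075). *rol-6* was 1.95-fold higher (0.97 ± 0.95, SD, n = 3; limma, adjusted p = 0.035), and this call was the least stable of the 8. It ended with prep 2 or prep 3 left out (adjusted p = 0.22 and 0.21) and under median centring of the arrays (adjusted p = 0.057). *sqt-1* exceeded *rol-6* on each array, by 0.39 ± 0.19 log2 units (SD, n = 3), a difference smaller than the spread of either gene.

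*lon-3* (ZK836.1), a collagen gene whose loss lengthens the animal and whose excess shortens it, had log2 ratios of -0.94, -0.13 and -0.30. All 3 arrays were below 0, and the mean of -0.46 ± 0.43 (SD, n = 3) did not pass (limma, adjusted p = 0.23; 95% interval from -0.996 to 0.08). *rol-6* exceeded *lon-3* on every array, by 0.82, 1.78 and 1.67 log2 units.

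In the order of the means, *bli-2*, *dpy-4*, *dpy-13* and *bli-1* came first, then *sqt-1*, *sqt-3*, *rol-6* and *dpy-5*, then *lon-3*, then *dpy-17*. The ranges over the 3 arrays overlapped between neighbours within the first 4 genes and within the next 4. They did not overlap at 3 of the 9 steps, those from *bli-1* to *sqt-1*, from *dpy-5* to *lon-3* and from *lon-3* to *dpy-17*. At these steps the differences of the ratios were 1.47 ± 0.71, 0.90 ± 0.66 and 1.39 ± 0.64 log2 units (SD, n = 3). With 3 arrays an exact permutation test could not reach an unadjusted p under 0.05, so the order is a description.

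**Figure D2:**
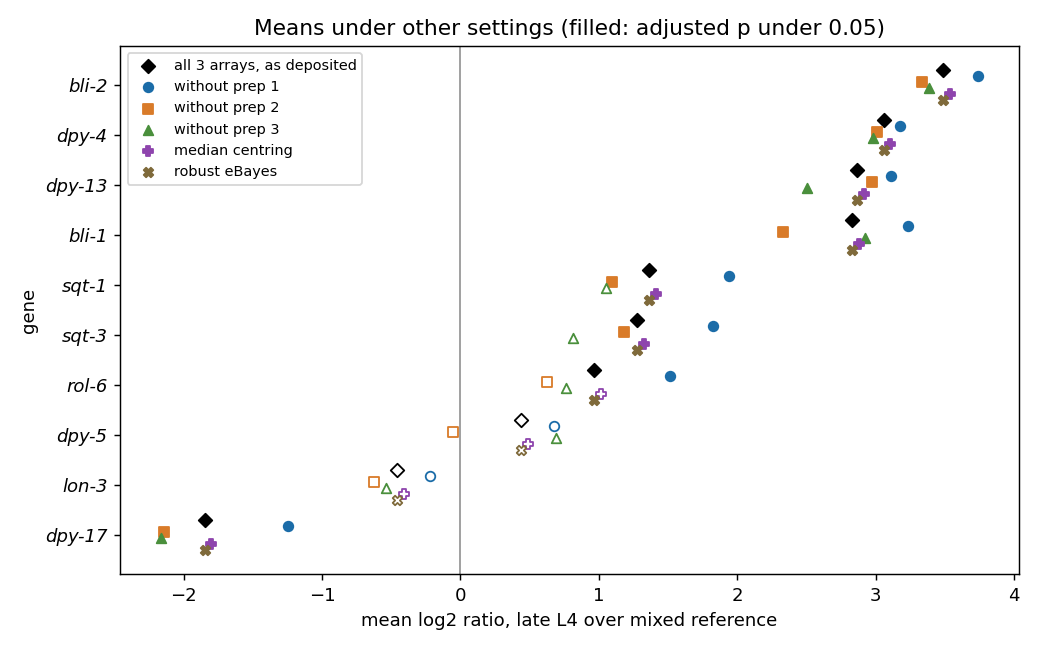
Mean log2 ratio of each gene with all 3 arrays, without each prep, after median centring and with robust eBayes. Filled symbols had an adjusted p under 0.05 and open symbols did not. *bli-2*, *dpy-4*, *dpy-13*, *bli-1* and *dpy-17* are filled throughout, while *sqt-1* and *sqt-3* are open without prep 3 and *rol-6* without prep 2, without prep 3 and after median centring.

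The preps differed from each other in a way that the 10 genes shared. On prep 1, 9 of the 10 genes had their lowest ratio, against 30.1% of all genes, and after median centring all 10 did, against 35.5%. This pattern was chosen after its values were seen. The mean of preps 2 and 3 exceeded prep 1 by 0.36 log2 units for *dpy-4*, by 1.74 for *sqt-1* and by 1.82 for *dpy-17*, with a median of 0.98 over the 10 genes and -0.04 over all genes. The gap was above 1 for 5 of the 10 genes, *bli-1*, *sqt-1*, *sqt-3*, *rol-6* and *dpy-17*, and for 5.30% of all genes. More than 2-fold above the reference were 4 of the 10 genes on prep 1, 8 on prep 2 and 7 on prep 3. Of these, *dpy-5* passed 2-fold only on prep 2. For scale, *col-34* at a log2 ratio of 0.96 on prep 1 stood above 88.3% of all genes. *col-61* at 0.98 on prep 2 stood above 88.6%, and *col-160* at 1.00 on prep 3 above 90.0%. Each array carries a different date in its title, so prep and date cannot be told apart.

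Other gene groups moved with this difference between preps. Of 13 molting cycle genes, 11 were lowest on prep 1, and the median gap was 1.42. The examples that follow were picked with their values in view. *qua-1*, a hedgehog-related gene needed for molting, gave log2 ratios of -0.83, 1.15 and 1.80 in prep order, and *mlt-8* had -0.78, 1.09 and 1.51. In the other direction, the collagen genes *col-19*, *col-7*, *col-62* and *col-63*, taken here as markers of the adult phase, were highest on prep 1 and lowest on prep 3 in 4 of 4 cases. Of the 135 numbered collagen genes, which include these 4, 38 were highest on prep 1 and 63 lowest on prep 3. Over all 19292 genes these counts were 7250 and 6618, so neither trait is particular to the markers. *col-19*, the usual reporter of adult epidermal fate, had log2 ratios of 2.89, 1.65 and 0.20, and *col-7* had 4.94, 4.27 and 1.78. Neither strut collagen gene followed that order, since *bli-1* and *bli-2* were lowest on prep 1. The part of these groups in the spread of the 10 genes was not tested.

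**Figure D3:**
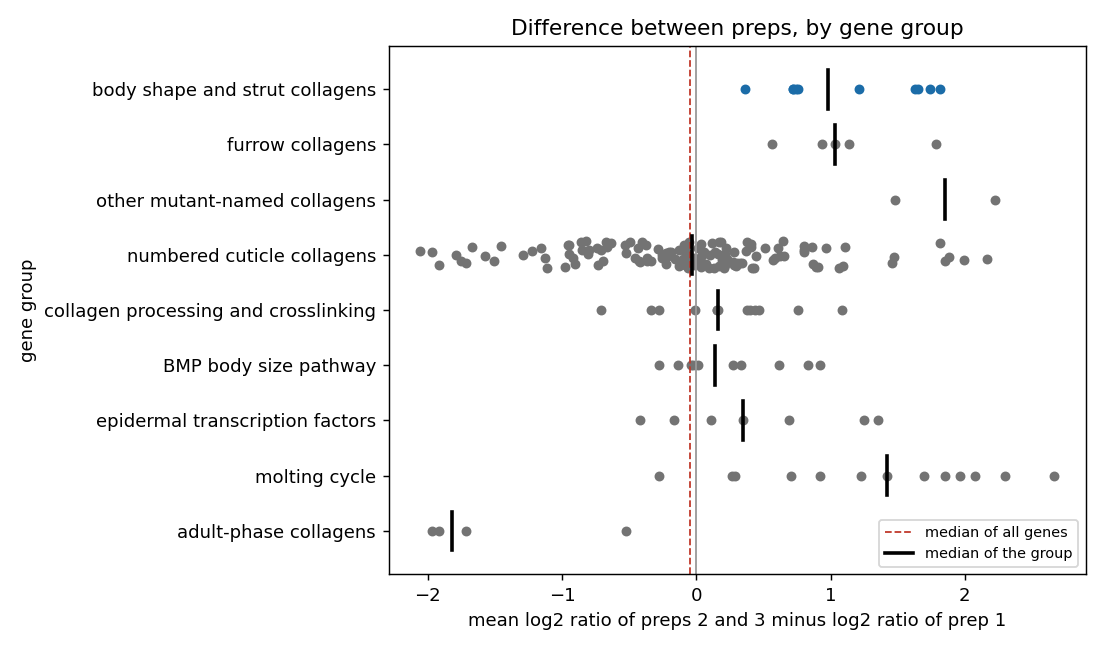
Mean log2 ratio of preps 2 and 3 minus the log2 ratio of prep 1 for each gene, by group. Black ticks are group medians and the dashed line is the median of all genes at -0.04. All 10 body shape and strut collagen genes lie to the right of 0, with a median of 0.98, as do 12 of 13 molting cycle genes, while the 4 adult-phase collagens lie to the left. Those 4 are also among the numbered cuticle collagens.

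Numbered collagen genes were taken by their *col* symbol alone, so they may include collagens outside the cuticle. Among the 152 measured genes taken as cuticle collagens, *bli-2* ranked 17th by mean ratio, *dpy-4* 25th, *dpy-13* 31st and *bli-1* 33rd. *dpy-17* ranked 143rd. By rank the 10 genes therefore spanned most of the family, while their means ran only from -1.85 to 3.48. Of the 135 numbered collagen genes, 74 were higher and 21 lower, with a median of 1.22, close to the 1.32 of the 10 genes. They ran from *col-36* at -5.06 ± 1.25 (-4.34 without prep 1) to *col-38* at 4.89 ± 0.16 (SD, n = 3). Of the 135, 45 were lowest on prep 1, and their median gap was -0.04. Members of this family have similar sequences and the probe type is not given, so the signal of single genes is uncertain.

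The furrow collagens, which line the circumferential grooves of the cuticle, gave lower ratios. Of 5 measured, limma called 2 lower and 0 higher, with 0 higher also at an unadjusted p under 0.05, and the median was -0.47. *dpy-7* was 2.51-fold lower (-1.33 ± 1.04, SD, n = 3; limma, adjusted p = 0.00694), and without prep 1 it missed the threshold at 1.66-fold lower (adjusted p = 0.11). *dpy-2* was 1.65-fold lower (-0.72 ± 0.33; limma, adjusted p = 0.046), a call that leaving out any of the preps ended (adjusted p from 0.068 to 0.28), as did median centring (adjusted p = 0.075). *dpy-9*, *dpy-8* and *dpy-3* had means of -0.47, -0.28 and 0.04 and did not pass. All 5 were lowest on prep 1, with a median gap of 1.04. Of the 10 genes, 9 were lowest on that prep. Of 2 further collagen genes named from mutants, *sqt-2* was 3.91-fold higher (1.97 ± 1.30, SD, n = 3; limma, adjusted p = 0.000873), or 6.54-fold without prep 1. *rol-8*, at -0.48 ± 0.89, did not pass. The mutant-named collagen gene *bli-6* and the furrow gene *dpy-10* were also listed but were not among the genes tested. The difference between these groups and the 10 genes was not tested.

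**Figure D4:**
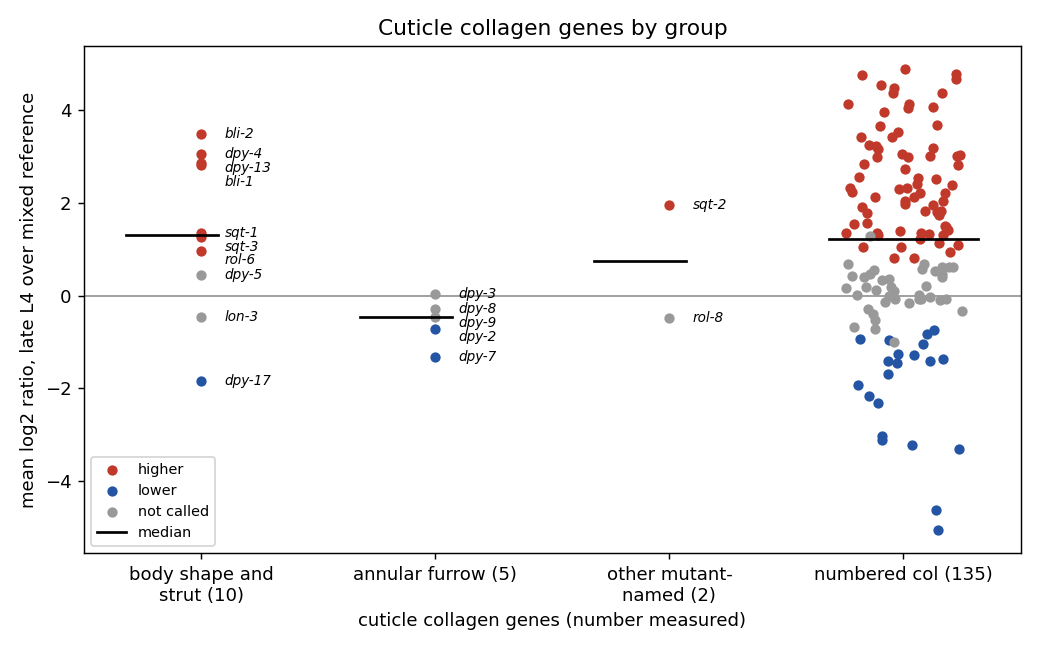
Mean log2 ratio over the 3 arrays of each measured gene taken as a cuticle collagen, in 4 groups. Red and blue points were higher and lower at an adjusted p under 0.05, grey points did not pass, and black lines are group medians. The medians are 1.32 for the 10 body shape and strut genes, -0.47 for the furrow group and 1.22 for the numbered genes.

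Genes that process collagens in the secretory pathway and outside the cell were next set beside them. Of 13 measured, 4 were higher, 1 lower and 8 did not pass, with a median of 0.45. At an unadjusted p under 0.05, 6 were higher and 4 lower (limma). *pdi-2*, the protein disulfide isomerase that is also a subunit of the collagen prolyl hydroxylase, was 3.68-fold higher (1.88 ± 0.28, SD, n = 3; limma, adjusted p = 3.90e-05). *dpy-18*, which encodes a catalytic subunit of that hydroxylase, was 3.30-fold higher (1.72 ± 0.47; limma, adjusted p = 0.000139). Another catalytic subunit gene, *phy-2*, picked with its value in view, averaged -0.62 ± 0.76 and did not pass (limma, adjusted p = 0.14). Further higher genes, picked with their values in view, were the peroxidase gene *mlt-7* (1.08 ± 0.82) and *doxa-1* (0.82 ± 0.20), which encodes the maturation factor of the dual oxidase. The lower gene, chosen likewise, was *dpy-31*, the astacin protease that cleaves the SQT-3 collagen. Its log2 ratios were -0.87, -0.65 and -0.79 on preps 1, 2 and 3, a mean of -0.77 ± 0.11 (limma, adjusted p = 0.028), and leaving out any of the preps ended the call (adjusted p from 0.071 to 0.12). *mlt-7* lost its call without prep 1 and without prep 2 (adjusted p = 0.090 and 0.065), and *doxa-1* without prep 1 and without prep 3 (adjusted p = 0.074 and 0.13).

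The BMP pathway, in which the ligand DBL-1 sets body length through receptors and Smad proteins acting in the epidermis, showed small ratios. Of 10 measured genes limma called 4 lower and 0 higher, with 0 higher also at an unadjusted p under 0.05, and the median was -0.28. *sma-10*, a membrane protein that binds the receptors, was 2.02-fold lower (-1.01 ± 0.59, SD, n = 3; limma, adjusted p = 0.012), a call lost without prep 1 (adjusted p = 0.14). The receptor gene *daf-4* was 1.77-fold lower (-0.82 ± 0.62; limma, adjusted p = 0.039), which ended with prep 1 or prep 3 left out (adjusted p = 0.14 and 0.28) and under median centring (adjusted p = 0.075). The remaining lower genes, picked with their values in view, were the receptor gene *sma-6* (-0.76 ± 0.48) and the Smad gene *sma-2* (-0.72 ± 0.10), and both calls were lost under median centring (adjusted p = 0.079 and 0.056). Leaving out any of the preps also ended the call of *sma-2* (adjusted p from 0.096 to 0.18), and leaving out prep 1 or prep 3 that of *sma-6* (adjusted p = 0.35 and 0.077). The ligand gene *dbl-1*, chosen likewise, had a mean of 0.04 ± 0.34.

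Of 7 measured transcription factors of the epidermis, 2 were lower and 0 higher, and 1, *bed-3*, had a positive mean at an unadjusted p under 0.05 (limma). *elt-3*, a GATA factor, was 1.90-fold lower (-0.93 ± 0.40, SD, n = 3; limma, adjusted p = 0.013), lost without prep 3 (adjusted p = 0.14). The nuclear receptor gene *nhr-25* was 1.73-fold lower (-0.79 ± 0.20; limma, adjusted p = 0.026), lost without any 1 prep (adjusted p from 0.070 to 0.15). Among the 13 molting cycle genes 1 was higher and limma called 0 lower, with 2, *noah-1* and *noah-2*, lower at an unadjusted p under 0.05. The higher gene was *nas-36*, an astacin protease of the molt, at 4.94-fold (2.30 ± 0.28; limma, adjusted p = 6.04e-06). *noah-1*, a zona pellucida domain gene of the apical matrix, averaged -0.81 ± 0.99 (limma, adjusted p = 0.078), and leaving out prep 2 or prep 3 brought it past the threshold (adjusted p = 0.018 and 0.040). Without prep 1 the count of higher molting genes was 5, with *qua-1*, *mlt-8*, *mlt-10* and *acn-1* added.

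Genes with the most similar profiles were sought for the highest and the lowest of the 10 genes, by Euclidean distance over the log2 ratios of the 3 arrays among 15111 other named genes. Nearest to *bli-2* were *gipc-2*, *abu-11* and *spsp-1*, at distances of 0.39, 0.43 and 0.44 log2 units. *gipc-2*, the nearest, gave log2 ratios of 3.35, 3.88 and 3.76 in prep order. For *dpy-17* the nearest were *mpst-2*, *M162.5* and *atz-1*, at 0.15, 0.36 and 0.50 log2 units. The ratios of *mpst-2* were -3.08, -1.30 and -1.36, so it too was lowest on prep 1. With 3 arrays such likeness rests on few points.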

How the data were processed

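The deposited table holds a log2 value for each feature on each array. The antilogs, in base 2, fell on steps of 0.001 (tolerance 0.05 of a step) for 100% of values, so these are base-2 logs of channel ratios. What the authors did about dyes, background, normalization and scaling, and the kind of probe, is not given in the sources used here, and spot intensities were not analysed here. Signal over background is therefore unknown, and the number of arrays limits the precision.

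Of 20000 features, 15655 carried 1 gene symbol, 198 several and 4147 none that was listed. For 15569 features the Entrez ID gave the current symbol through a RefSeq table of assembly WBcel235, used only for names, chromosomes and gene order, since no build is named for the arrays. Features with a value on every array, 19736 in all, were averaged by gene, leaving 15112 named genes and 4180 unnamed features, 19292 in all and called genes here. The mean log2 ratio was tested against 0, two-sided, by lmFit followed by eBayes (limma 3.58.1 under R 4.3.3), with Benjamini-Hochberg adjustment over all of them and a threshold of 0.05. The fit had 2 residual and 12.8 prior degrees of freedom, with a prior SD of 0.438 log2 units. The reference has no replicate, and its own spread is left out. The procedure was run on simulated data with independent errors and variances drawn from the fitted prior. Those data held no shared prep or dye effect, so the run checks the code only.

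The genes, lists and most tests were chosen with earlier results of these data known. From the lists of other collagens, collagen processing, the BMP pathway, epidermal transcription factors and molting the text names the 2 called genes of largest absolute mean (where fewer were called, those of lowest p) and all furrow collagens. The sperm, yolk, male and adult-phase lists served to describe stage and sex, with no such rule. Further genes are marked as picked with their values in view. Alternatives were median centring, centring with scaling, values on at least 2 arrays, robust eBayes, no moderation, features not averaged, named genes only, stricter thresholds and leaving out each prep. Protein and promoter sequences were not analysed here.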

Additional observations from a re-analysis of the deposited data

How the results depend on the processing

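No paired analysis was possible because all 3 arrays belong to 1 group. Signal over background, which would limit dim spots, is unknown. The cause of the differences below was not tested, apart from fewer arrays, stricter thresholds or 2 degrees of freedom where these define the setting. Without moderation every count was 0, with 4 of the 10 genes higher and 0 lower at an unadjusted p under 0.05 (1874 higher and 2340 lower over all genes). The means stayed as they were but missed the threshold (adjusted p from 0.15 to 0.45) for *bli-2* (3.48), *dpy-4* (3.06), *dpy-13* (2.86), *bli-1* (2.83), *sqt-1* (1.36), *sqt-3* (1.27), *rol-6* (0.97) and *dpy-17* (-1.85). Under median centring *rol-6* had a mean of 1.02 (adjusted p = 0.057), and with scaling 1.08 (0.062).

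Leaving out 1 prep gave 4 to 7 higher genes among the 10, 1 lower in each case, and 1804 to 2055 higher and 1337 to 1776 lower over all genes. The mean of *rol-6* ran from 0.62 to 1.51, that of *sqt-1* from 1.05 to 1.94, that of *sqt-3* from 0.82 to 1.82 and that of *dpy-5* from -0.056 (without prep 2) to 0.69. Lower calls ran from 0 to 1 for furrow collagens, 0 to 3 for the BMP pathway, 0 to 2 for collagen processing, 0 to 1 for epidermal factors and 0 to 2 for molting genes. Higher calls ran from 0 to 1 for epidermal factors and 1 to 5 for molting genes. Without prep 2 limma estimated an unlimited prior, so each gene took the same variance and the p-values there are very small.

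Median centring, with or without scaling, left 1 lower furrow collagen and 1 lower BMP gene. Of the genes called in either direction, 58.0% were then higher (57.9% with scaling), against 52.6% without centring. At an adjusted p under 0.01, 1217 genes were lower over all, 1 among furrow collagens and 0 in the BMP, processing and epidermal lists, with 2 higher in processing. At 2-fold or more, 1168 were lower over all, 1 among furrow collagens, 1 in the BMP list and 0 in the processing and epidermal lists.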

Other observations

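Among the 45 pairs of the 10 genes, the difference of the log2 ratios was steadiest between *bli-2* and *lon-3*, at 3.92, 3.92 and 3.99 log2 units on preps 1, 2 and 3, and next between *sqt-1* and *dpy-17*, at 3.26, 3.16 and 3.20. The spread of these differences (SD 0.04 and 0.05, n = 3) was below that of each gene alone, whose SDs ran from 0.43 to 1.05. It was widest between *sqt-3* and *dpy-5*, at 0.22, 0.03 and 2.26. These pairs were picked after their values were seen.

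By gene order in the RefSeq table, the 10 genes have 20 adjacent protein-coding genes, of which 19 were measured. Of these, 4 were higher, 3 lower and 12 did not pass (limma, adjusted p under 0.05). Over all genes 12.0% were higher and 10.8% lower, and the difference from these shares was not tested. The higher neighbours were the collagen genes *col-34*, after *dpy-13* (1.35 ± 0.35, SD, n = 3), and *col-80*, before *bli-1* (2.22 ± 1.72), with *rmd-3*, after *sqt-1* (2.17 ± 0.48), and *C09G5.7*, after *bli-1* (1.03 ± 0.13). The call of *col-80* ended with robust eBayes (adjusted p = 0.14), and its fold of 4.67 became 9.27 without prep 3 and 3.09 without prep 1. The lower neighbours were *F27C1.2*, beside *dpy-5* (-1.67 ± 0.49), *F23H12.5*, beside *sqt-3* (-1.53 ± 0.70), and *atln-2*, beside *dpy-4* (-0.74 ± 0.13), whose call ended with any of the preps left out (adjusted p from 0.079 to 0.18).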
